A study of Mus musculus with 9 samples.

Results

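Cytotoxic granule genes were followed through 3 states of OT-I CD8 T cells. The 10 genes were chosen by name, with earlier results of these data known. They are the granzymes Gzma, Gzmb, Gzmc, Gzmk and Gzmm, perforin (Prf1), serglycin (Srgn), the inhibitor Serpinb9, cathepsin C (Ctsc) and Nkg7. Each matched 1 row among 23936 genes with a symbol, and each was among the 10185 genes tested, those that reached 1 FPKM in 3 or more of the libraries. FPKM divide fragment numbers by the length of the transcript and by library size, so levels of different genes can be set side by side.

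Cytotoxic lymphocytes kill by releasing secretory granules onto a bound cell. Perforin opens pores in the target membrane and lets granzymes, a family of serine proteases, reach the cytosol, where granzyme B cleaves caspases and other substrates. Serglycin carries chondroitin sulfate chains that hold the cationic granzymes in the granule, cathepsin C removes the propeptide that keeps granzymes inactive, and Serpinb9 inhibits granzyme B that leaks into the killer cell itself.

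The study profiled naive, spleen-primed and MLN-primed OT-I cells, mouse CD8 T cells with a transgenic receptor for an ovalbumin peptide, with 3 libraries in each group. Naive and spleen-primed cells came from the spleen and MLN-primed cells from the MLN, a lymph node that drains the gut. Sample titles add "iv" to the spleen-primed and "oral" to the MLN-primed libraries, so the effects of organ and of whatever those words stand for cannot be told apart. No naive cells of the MLN were profiled, so MLN-primed and naive cells differ in organ as well as in priming. The priming agent, the time after priming, the sort, and the age and number of animals were not stated in the labels used here. The labels do not say that replicates are separate animals, so the p-values measure only how these libraries spread, which may be technical.

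Markers of CD8 T cells were high in every library. The 6 CD8 T cell markers Cd8a, Cd8b1, Cd3e, Cd3d, Cd3g and Cd2 summed to 3274 to 3602 FPKM in naive, 2339 to 2442 after spleen priming and 1545 to 1612 after MLN priming. Natural killer cells store the same granules; their 6 markers summed to between 1.55 and 6.86 FPKM in naive, 1.76 and 4.24 after spleen priming and 0.434 and 0.834 after MLN priming. Each of 7 mast cell and basophil markers stayed under 1 FPKM in every library, and Mcpt4 was listed at 0 in all 9. The 4 B cell markers summed to between 6.43 and 14.9 FPKM over the 9 libraries, nearly all of it Cd79b. The 3 CD4 T cell markers summed to between 7.72 and 17.6 FPKM, mostly Cd40lg and, after priming, Zbtb7b, while Cd4 itself averaged 0.212 FPKM in the naive group, 0.0735 after spleen priming and 0.0786 after MLN priming. Myeloid markers, 5 of 7 in the table, summed to between 4.11 and 30.0 FPKM in naive, 0.436 and 2.24 after spleen priming and 0.173 and 0.246 after MLN priming. Gamma delta T cell markers (2 of 4 in the table) reached at most 1.25 FPKM in sum and the 4 epithelial markers at most 1.94. The part of these cells in the results was not tested. The total FPKM of a library ran from 613322 to 720410. The slope of expression on transcript length, taken against the other libraries of a group, was outermost in spleen-primed 3 (0.0787 log2 units per doubling of length) and MLN-primed 1 (-0.0896). Taken against the mean of all libraries, the slope ran from 0.111 to 0.187 in naive and from -0.167 to -0.00399 in primed libraries. Among the 3 spleen-primed libraries, replicate 3 was the lowest for 9 of the 10 granule genes and for 34.6% of all tested genes. MLN-primed 1 was the highest of its group for 8 of the 10, against 36.5% of all tested genes.

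Granule genes other than serglycin were higher in both primed groups than in naive cells, with the largest differences in Gzmb, Gzmk and Gzma. Of the 10 genes, 9 were higher and 1 was lower in spleen-primed than in naive cells by limma at an adjusted p under 0.05, where 43.1% of all tested genes were higher and 32.7% lower. In MLN-primed cells the same split of 9 and 1 stood beside 45.5% higher and 33.2% lower. The 9 include Gzmk and Gzmc, which reached the 1 FPKM filter only through primed libraries. The filter thus favoured their calls against naive, and their p-values are not given below. The median log2 difference of the 10 was 2.40 after spleen priming and 1.51 after MLN priming, against 0.10 and 0.15 over all tested genes. Under quantile normalisation the calls over all tested genes split as 3545 higher and 4070 lower for spleen-primed cells, against 4387 and 3331 with the values as deposited. Both comparisons share the 3 naive libraries. Fold values below are ratios of mean FPKM, whereas log2 differences compare means of log2(FPKM + 1), so they need not match. In bulk RNA, fewer cells that express a gene and less RNA of it per cell cannot be told apart.

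Among the granzymes, Gzma, a tryptase that cuts after basic residues, had the highest level in primed cells. It was at 7.37, 9.79 and 17.0 FPKM in the naive libraries, at 2822, 2748 and 2016 after spleen priming and at 1993, 1733 and 1686 after MLN priming. The naive and primed ranges were far apart, and every MLN-primed library was below every spleen-primed one. Against naive, Gzma was 222-fold higher in spleen-primed cells (log2 7.73 ± 0.24 SE, limma adjusted p = 1.64e-09) and 159-fold higher in MLN-primed cells (7.26 ± 0.24, limma adjusted p = 2.35e-09). It rose from places 3631 to 6168 among the 23936 genes in naive libraries to places 38 to 58 after spleen priming and 70 to 72 after MLN priming.

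Granzyme B, the caspase-cleaving granzyme, was at 1.75, 1.81 and 3.34 FPKM in naive libraries, at 1676, 1416 and 1405 after spleen priming and at 1266, 1145 and 1097 after MLN priming. As for Gzma, the 3 groups did not overlap. Gzmb was 651-fold higher in spleen-primed (log2 8.86 ± 0.16, limma adjusted p = 5.89e-11) and 508-fold higher in MLN-primed than in naive cells (8.50 ± 0.16, limma adjusted p = 6.40e-11). Naive 3 had the highest naive level of Gzma and of Gzmb, and also the highest naive sum of natural killer markers (6.86 FPKM, against 1.55 and 4.11) and of myeloid markers (30.0 FPKM, against 4.11 and 18.2); their part in the naive granzyme level was not tested.

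Gzmk, a tryptase that lies next to Gzma on chromosome 13, was barely listed in naive libraries, at 0.0766, 0.123 and 0.138 FPKM. It reached 386, 392 and 295 FPKM after spleen priming and 368, 288 and 267 after MLN priming. The primed groups overlapped each other and lay far above naive. The log2 difference from naive was 8.32 ± 0.14 after spleen priming and 8.10 ± 0.14 after MLN priming. The pseudocount of 1 understates such changes, which start near 0. Because Gzmk reached the 1 FPKM filter only through primed libraries, no p-value against naive is given.

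Gzmm, a granzyme that cuts after methionine and leucine, stood much lower, at 1.61, 4.66 and 2.04 FPKM in naive, 27.6, 27.5 and 20.2 after spleen priming and 9.92, 8.25 and 11.6 after MLN priming. The 3 groups were separate, with MLN-primed between the others. Gzmm was 9.05-fold higher in spleen-primed (log2 2.86 ± 0.26, limma adjusted p = 4.23e-06) and 3.58-fold higher in MLN-primed than in naive cells (1.61 ± 0.26, limma adjusted p = 2.45e-04).

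Gzmc was the least expressed member. It was at 0.0628 and 0.101 FPKM in naive 1 and 2 and listed at 0 in naive 3, at 3.53, 1.96 and 2.48 after spleen priming and at 1.76, 2.06 and 1.59 after MLN priming. Primed and naive libraries did not overlap, while the primed groups did. The log2(FPKM + 1) difference from naive was 1.77 ± 0.14 after spleen priming and 1.41 ± 0.14 after MLN priming. It grew to 4.17 and 3.67 with a pseudocount of 0.1. No p-value against naive is given, because Gzmc reached the 1 FPKM filter only through primed libraries. Its coding sequence shares 76.6% of aligned bases with that of Gzmb, whose level was far higher, so the small Gzmc values are uncertain where reads could be assigned to either gene.

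**Figure D1:**
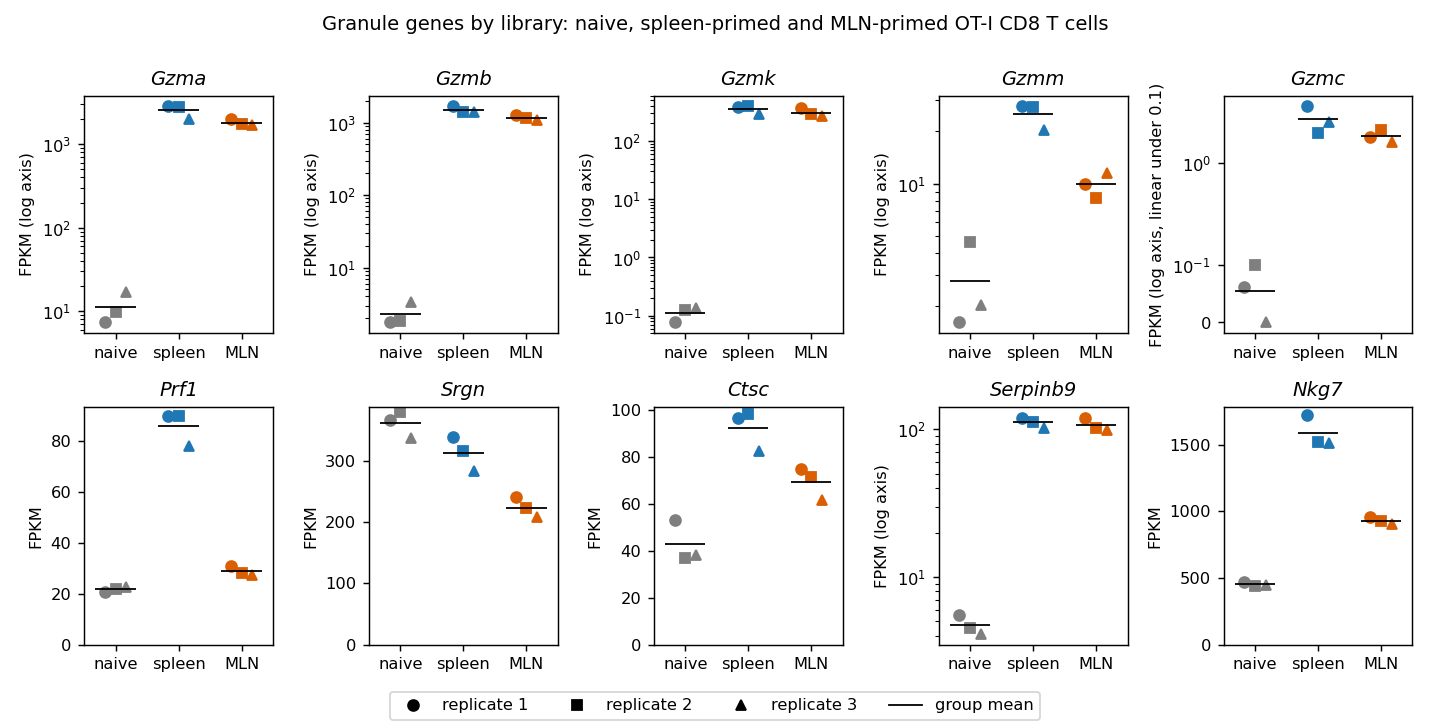
FPKM of the 10 granule genes in each library, by group (naive, spleen-primed, MLN-primed). Symbols are replicates 1 to 3 and lines are group means. Axes are logarithmic for Gzma, Gzmb, Gzmk, Gzmm and Serpinb9, logarithmic with a linear part under 0.1 FPKM for Gzmc, and linear from 0 for the others. Prf1 in MLN-primed libraries (27.2 to 30.7) lies nearer to naive (20.6 to 22.7) than to spleen-primed libraries (78.0 to 89.8).

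Perforin stood above each of the 5 granzymes in naive libraries. Prf1 was at 20.6, 21.7 and 22.7 FPKM in naive, 89.7, 89.8 and 78.0 after spleen priming and 30.7, 28.2 and 27.2 after MLN priming. The 3 groups did not overlap, with MLN-primed only a little above naive. Against naive, Prf1 was 3.96-fold higher in spleen-primed cells (log2 1.93 ± 0.08, limma adjusted p = 1.28e-08) and 1.32-fold higher in MLN-primed cells (0.39 ± 0.08, limma adjusted p = 0.00122). The second of these calls was lost with quantile normalisation (0.04, limma adjusted p = 0.655) and the difference was 0.25 with median-of-ratios scaling (limma adjusted p = 0.0410).

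Nkg7, a granule membrane protein needed for efficient degranulation, was already abundant in naive cells. It was at 471, 441 and 450.3 FPKM in naive, 1721, 1522 and 1512 after spleen priming and 960.3, 925 and 904 after MLN priming. MLN-primed libraries formed a middle group with no overlap on either side. Nkg7 was 3.49-fold higher in spleen-primed (log2 1.80 ± 0.07, limma adjusted p = 9.81e-09) and 2.05-fold higher in MLN-primed than in naive cells (1.03 ± 0.07, limma adjusted p = 4.53e-07). The MLN-primed difference shrank to 0.48 under quantile normalisation and to 0.66 with the length trend removed, and both still passed.

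Serpinb9, the inhibitor of granzyme B, was higher in both primed groups than in naive cells. It was at 5.55, 4.52 and 4.13 FPKM in naive, 120.0, 113 and 103 after spleen priming and 119.5, 102 and 99.5 after MLN priming. The primed groups overlapped, and both lay above naive, 23.6-fold in spleen-primed (log2 4.30 ± 0.11, limma adjusted p = 3.91e-10) and 22.6-fold in MLN-primed cells (4.24 ± 0.11, limma adjusted p = 3.97e-10).

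Cathepsin C was at 52.8, 36.7 and 38.3 FPKM in naive, 96.3, 98.2 and 82.4 after spleen priming and 74.9, 71.4 and 61.6 after MLN priming, again in 3 separate groups. Ctsc was 2.17-fold higher in spleen-primed (log2 1.11 ± 0.14, limma adjusted p = 3.94e-05) and 1.63-fold higher in MLN-primed than in naive cells (0.70 ± 0.14, limma adjusted p = 8.95e-04). Under quantile normalisation the MLN-primed difference was 0.21 and did not pass (limma adjusted p = 0.174).

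Serglycin was the member that went down. Srgn was at 366, 379 and 337 FPKM in naive, 339, 315 and 282 after spleen priming and 240.0, 223 and 207 after MLN priming. Naive and spleen-primed ranges overlapped, and MLN-primed libraries lay below both. Srgn was lower by 0.69 in log2 in MLN-primed than in naive cells (-0.69 ± 0.09, limma adjusted p = 3.84e-05), a call kept in all 21 alternative settings, with values from -1.39 to -0.61. In spleen-primed cells the difference from naive was small (-0.21 ± 0.09, limma adjusted p = 0.0478) and missed the threshold in 11 of 21 settings, among them without naive 1 (limma adjusted p = 0.106), without naive 2 (0.135), without spleen-primed 2 (0.0882), without spleen-primed 3 (0.166), without MLN-primed 2 (0.0645) and without MLN-primed 3 (0.0507). Quantile normalisation and removal of the length trend made it larger, -0.87 and -0.57, and both passed.

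The order of the members by level differed between the groups. In naive libraries it ran Nkg7, Srgn, Ctsc, Prf1, Gzma, with non-overlapping ranges, then Serpinb9, Gzmm and Gzmb, where Gzmm overlapped both others, then Gzmk and Gzmc, which overlapped. In spleen-primed libraries Gzma led, Nkg7 overlapped with Gzmb and Gzmk with Srgn, and Serpinb9 stood above Ctsc and Prf1, which overlapped, before Gzmm and Gzmc. In MLN-primed libraries the order was Gzma, Gzmb, Nkg7, Gzmk, Srgn, Serpinb9, Ctsc, Prf1, Gzmm and Gzmc, with no overlap between neighbours. The 10 genes together held 0.133% of all FPKM in naive, 1.02% after spleen priming and 0.728% after MLN priming (means, n = 3 each).

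The promoters of Gzma, Gzmb, Prf1 and Nkg7 are shown. Gzma and Gzmb are the granzymes most abundant after priming, and Prf1 is the member with the largest difference between the primed groups. Nkg7 meets neither rule. The other members are not shown, among them Ctsc and Gzmk, which held none of the letters marked below. Sequences are from RefSeq (GRCm38.p6), 250 bases before to 50 after the start, 5′ to 3′ on the gene's strand. Capitals mark matches, on either strand, to the letters TGTGGT (RUNX; ACCACA is its reverse complement), AGGTGTG (T-box) or TGANTCA (AP-1). Gzma lies at chr13:113100932-113101231 on the minus strand, Gzmb at chr14:56262285-56262584 on the minus strand, Prf1 at chr10:61297586-61297885 on the plus strand and Nkg7 at chr7:43436888-43437187 on the plus strand.
Gzma: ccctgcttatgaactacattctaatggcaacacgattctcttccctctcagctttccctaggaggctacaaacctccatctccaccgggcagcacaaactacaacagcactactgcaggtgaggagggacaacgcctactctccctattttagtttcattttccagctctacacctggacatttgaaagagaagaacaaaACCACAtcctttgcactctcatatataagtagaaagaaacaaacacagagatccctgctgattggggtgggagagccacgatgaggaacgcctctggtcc
Gzmb: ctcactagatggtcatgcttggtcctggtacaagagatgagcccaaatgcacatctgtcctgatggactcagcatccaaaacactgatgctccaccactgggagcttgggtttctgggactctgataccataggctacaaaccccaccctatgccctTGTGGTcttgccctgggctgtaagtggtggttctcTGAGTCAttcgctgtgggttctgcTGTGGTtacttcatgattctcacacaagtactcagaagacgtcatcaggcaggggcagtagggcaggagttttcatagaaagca
Prf1: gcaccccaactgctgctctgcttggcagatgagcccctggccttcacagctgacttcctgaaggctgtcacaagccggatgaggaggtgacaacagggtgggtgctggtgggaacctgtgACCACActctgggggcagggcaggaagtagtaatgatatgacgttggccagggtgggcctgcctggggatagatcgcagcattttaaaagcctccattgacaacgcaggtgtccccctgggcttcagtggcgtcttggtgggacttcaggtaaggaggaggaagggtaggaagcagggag
Nkg7: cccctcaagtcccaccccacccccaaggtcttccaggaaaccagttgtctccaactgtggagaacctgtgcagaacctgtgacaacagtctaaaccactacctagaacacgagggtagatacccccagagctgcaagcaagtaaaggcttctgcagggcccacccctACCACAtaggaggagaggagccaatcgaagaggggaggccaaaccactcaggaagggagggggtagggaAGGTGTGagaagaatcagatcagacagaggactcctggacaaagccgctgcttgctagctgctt

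Each of these 4 promoters held the RUNX letters. The match began 50 bases before the start in Gzma, 130 before in Prf1 and 83 before in Nkg7, and Gzmb had 1 match 93 and another 34 bases before its start. Over the whole set, 8 of the 10 genes, or 8 of their 12 listed promoters, held the RUNX letters, against 16.8% of all 32851 promoters of the same length; Ctsc and Gzmk held none. The T-box letters were found in 2 of the 10, Nkg7 (14 bases before the start) and Gzmc, against 5.84% of all promoters. The AP-1 letters were found in 1, Gzmb (58 bases before the start), against 7.81%. Some T-box and RUNX letters could share bases in other promoters; the matches above did not overlap each other. A match describes these letters and shows no binding.

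Between the primed groups, differences among the granule genes were unequal in size. By limma 5 of the 10 were lower, 0 were higher and 5 did not pass, where 13.1% of all tested genes were lower and 17.3% higher. The median log2 difference of the 10 was -0.44, against 0.03 over all tested genes. The estimate of every member was below 0 here and in each of 21 alternative settings that gave it a value. Many of these settings cannot move an estimate: the changed filters, the variance options, the block, the fit of the compared groups alone and the fits without a naive library. The values of 7 of the 10 did not overlap between the groups, each lower in MLN-primed libraries, a pattern held by 21.0% of all tested genes. With median-of-ratios scaling the calls over all tested genes split as 1376 higher and 1605 lower, against 1760 and 1333 with the values as deposited. The summed CD8 T cell markers were lower in MLN-primed libraries as well (1545 to 1612 against 2339 to 2442 FPKM). So were the summed natural killer markers (0.434 to 0.834 against 1.76 to 4.24 FPKM), most of it Klrb1c, while Ncr1 averaged 0.0100 and 0.0185 FPKM. Their part in the result was not tested.

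**Figure D2:**
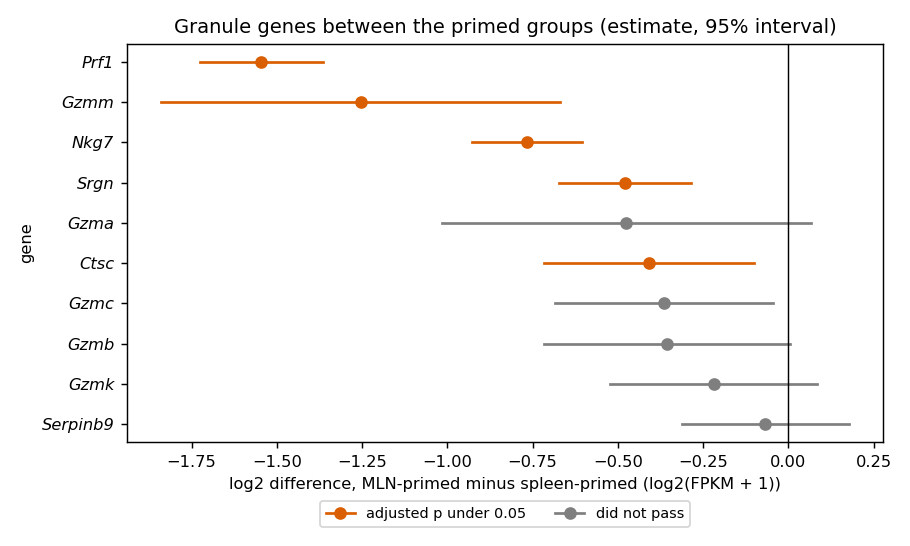
Difference between MLN-primed and spleen-primed cells for the 10 granule genes, in log2(FPKM + 1), as the limma estimate (point) and its 95% interval (line), with 3 libraries in each group. Prf1, Gzmm, Nkg7, Srgn and Ctsc passed at an adjusted p under 0.05; each of the 10 points lies below 0.

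Perforin showed the largest of these differences. Its level in MLN-primed libraries, 28.7 ± 1.80 FPKM (SD, n = 3), was 0.335 of the 85.8 ± 6.80 FPKM in spleen-primed ones (log2 -1.55 ± 0.08, limma adjusted p = 7.16e-06). It was the gene with the 7th smallest p-value of 10185. Across all alternatives the estimate stayed between -1.66 and -1.51 and passed.

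Gzmm and Nkg7 followed. Gzmm was at 9.91 ± 1.66 FPKM in MLN-primed against 25.1 ± 4.26 in spleen-primed libraries (log2 -1.25 ± 0.26, limma adjusted p = 0.00571). Nkg7 was at 930 ± 28.4 against 1585 ± 118 FPKM (log2 -0.77 ± 0.07, limma adjusted p = 9.10e-05). Srgn, whose chains hold the granzymes in the granule, was at 223 ± 16.3 against 312 ± 28.6 FPKM (log2 -0.48 ± 0.09, limma adjusted p = 0.00283). These 3 calls and that of Prf1 passed in each of the 21 alternatives.

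Cathepsin C was at the edge of the threshold. It was at 69.3 ± 6.86 FPKM in MLN-primed against 92.3 ± 8.61 in spleen-primed libraries (log2 -0.41 ± 0.14, limma adjusted p = 0.0483), with no overlap. Its call was lost without naive 3 (limma adjusted p = 0.0585), spleen-primed 1 (0.126), spleen-primed 2 (0.15), MLN-primed 2 (0.0861) or MLN-primed 3 (0.159), and with a pseudocount of 0.1 (0.0518), no filter (0.0949), equal totals (0.0863) or no variance trend (0.0558).

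The abundant granzymes did not pass. For Gzma, every MLN-primed library was below every spleen-primed one, at 1804 ± 165 against 2529 ± 445 FPKM, with a log2 difference of -0.47 and a 95% interval from -1.02 to 0.07 (limma adjusted p = 0.172). Gzmb was likewise separate, at 1169 ± 87.1 against 1499 ± 153 FPKM, with a difference of -0.36 and an interval from -0.72 to 0.00 (limma adjusted p = 0.126). Without naive 3, which leaves these estimates as they are and alters only their errors, both passed, at adjusted p = 0.0457 for Gzma and 0.0182 for Gzmb (limma), and Gzmb also passed with only the libraries of both primed groups fitted (0.0361).

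Gzmk, Gzmc and Serpinb9 overlapped between the primed groups. The log2 difference was -0.22 for Gzmk, with a 95% interval from -0.52 to 0.09 (limma adjusted p = 0.264). Leaving out both spleen-primed 3 and MLN-primed 1, it was -0.49 and passed (limma adjusted p = 0.00157). For Gzmc it was -0.36, from -0.68 to -0.04 before adjustment (limma adjusted p = 0.0826), with -0.51 and a pass without spleen-primed 2 (0.0272) and -0.20 without spleen-primed 1 (0.246). Serpinb9 had the smallest difference, -0.07, from -0.31 to 0.18 (limma adjusted p = 0.689).

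Because the members differed by unequal amounts, the balance between them within a library was compared as well; such ratios do not depend on the scale of a library. Granzyme B stood to perforin as 18.7, 15.8 and 18.0 to 1 in spleen-primed libraries and as 41.2, 40.5 and 40.3 to 1 in MLN-primed ones. In naive libraries the order was the other way round, with Gzmb at 0.0852, 0.0834 and 0.147 of Prf1. The log2 ratio of Prf1 to Gzmb was -4.12 ± 0.13 after spleen priming and -5.35 ± 0.02 after MLN priming (SD, n = 3), a difference of -1.22 with no overlap (exact permutation p = 0.10, 2-sided, adjusted over 6 such quantities 0.15). With 3 libraries against 3, a p of 0.10 is the smallest this test can give, so none of the 6 could reach 0.05.

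The other ratios differed by smaller amounts. The log2 ratio of Serpinb9 to Gzmb was 0.29 higher in MLN-primed libraries, without overlap (exact permutation p = 0.10, adjusted 0.15). That of Gzmk to Gzma was 0.26 higher, also without overlap (exact permutation p = 0.10, adjusted 0.15). Gzma to Gzmb overlapped, at 1.68, 1.94 and 1.43 to 1 after spleen priming and 1.57, 1.51 and 1.54 to 1 after MLN priming (log2 difference -0.12, exact permutation p = 0.50, adjusted 0.60). That difference was -0.01 without spleen-primed 2 and -0.25 with neither spleen-primed 3 nor MLN-primed 1.

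The 5 granzymes together summed to 4914, 4586 and 3739 FPKM after spleen priming and 3639, 3175 and 3064 FPKM after MLN priming, against 10.9, 16.5 and 22.5 in naive ones. This sum is a level and, unlike a ratio, depends on the scale of a library. The primed groups did not overlap, with a log2 difference of -0.42 (exact permutation p = 0.10, adjusted 0.15). Gzma held 57.1% of this sum after spleen priming and 54.8% after MLN priming, Gzmb 34.2% and 35.6%, and Gzmk 8.09% and 9.30%. The Gzmb share overlapped between the groups (exact permutation p = 0.60, adjusted 0.60).

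**Figure D3:**
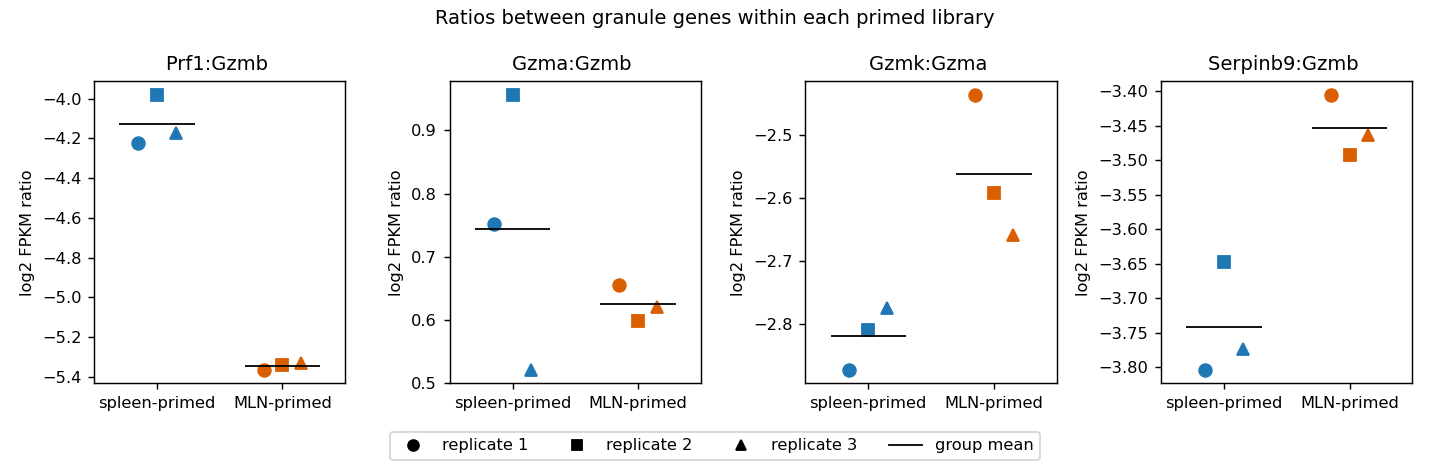
Log2 FPKM ratios between pairs of granule genes within each primed library; symbols are replicates 1 to 3 and lines are group means. Prf1:Gzmb is separate between the groups, at -4.12 on average after spleen priming and -5.35 after MLN priming, whereas Gzma:Gzmb overlaps.

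The other granzymes lie with Gzmb and Gzmc in a protease cluster on chromosome 14. Of the 13 genes of the table between Mcpt1 and Gzmb, 10 besides Gzmb, Gzmc and Gzmf stayed under 1 FPKM in every library, and 9 of them, including Gzmd, Gzme, Gzmg and Gzmn, were listed at 0 in all 9 libraries. Gzmf was listed at 0 in naive libraries, at 0.527, 1.18 and 0.886 FPKM after spleen priming and at 2.20, 1.89 and 1.54 after MLN priming. Its MLN-primed values lay above its spleen-primed ones; because it reached the 1 FPKM filter through the MLN-primed libraries, no test of it is given. Its coding sequence shares 74.1% of aligned bases with Gzmc and 84.8% with Gzme, so reads of so low a gene are open to misassignment.

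Gene positions follow the RefSeq annotation of GRCm38, where all 10 are protein-coding. Gzmb spans chr14:56258836-56262334 and Gzmc chr14:56231397-56241647, both on the minus strand. Gzma spans chr13:113093824-113100981 and Gzmk chr13:113171630-113180965, also on the minus strand. The genes beside this pair, Esm1 and Gpx8, were also higher in the primed groups. Of all tested genes, 43.1% were called higher than naive after spleen priming and 45.5% after MLN priming. Neither Esm1 nor Gpx8 reached 1 FPKM in a naive library, and no test of them is given. Esm1, which encodes a secreted proteoglycan, was at 0.0320, 36.3 and 34.7 FPKM on average in the naive group, after spleen priming and after MLN priming. Gpx8 was at 0.0152, 3.86 and 3.62 FPKM. The Gzma span overlaps Cdc20b, which reached at most 1.86 FPKM in any library.

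Gzmm spans chr10:79689020-79695261 on the plus strand, in a stretch that also holds neutrophil proteases. Elane, the neutrophil elastase gene, was listed at 0 in all 9 libraries. Prss57, a serine protease of the same stretch, was at 0.0700, 1.86 and 3.08 FPKM on average in the naive group, after spleen priming and after MLN priming. Prf1 spans chr10:61297751-61304684 and Srgn chr10:62493833-62527445, on the plus and the minus strand. Serpinb9 spans chr13:32997061-33017955, Ctsc chr7:88278024-88315861 and Nkg7 chr7:43437138-43438246, on the plus strand. Whether the authors' counting used strand is not stated in the labels, and the spans of Srgn, Serpinb9 and Gzmc overlap predicted or small RNA genes.

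Genes that act with the granule were read from 7 lists. Among 14 tested granule proteases and protease inhibitors, 10 were higher and 3 lower in spleen-primed than in naive cells, and 9 and 3 in MLN-primed cells. Over all tested genes, 43.1% were higher and 32.7% lower after spleen priming than in naive cells, and 45.5% and 33.2% after MLN priming. Between the primed groups 2 were higher in MLN-primed cells, 7 were lower and 5 did not pass (17.3% and 13.1% over all tested genes), with a median log2 difference of -0.19. Cathepsin D (Ctsd), a lysosomal aspartic protease, was at 254 ± 4.90 FPKM in naive, 939 ± 65.5 after spleen priming and 385 ± 19.3 after MLN priming (-1.28 ± 0.07 between the primed groups, limma adjusted p = 8.72e-06). Cathepsin W (Ctsw), a papain-family protease of cytotoxic cells, was at 205 ± 2.98 after spleen priming and 133 ± 6.51 after MLN priming (-0.62 ± 0.07, limma adjusted p = 2.05e-04). Cathepsin S (Ctss), a protease of antigen processing, also was lower (-0.42), whereas cathepsin Z (Ctsz) was higher, at 50.2 ± 1.93 against 35.6 ± 1.36 FPKM (0.49), as was the little expressed cathepsin L (Ctsl; 0.29). The Ctsl call was lost without spleen-primed 1, 2 or 3 or MLN-primed 1 or 2, with limma adjusted p from 0.0586 to 0.101.

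Next came the machinery that moves granules to the membrane and fuses them with it. Of 16 tested genes, 0 were higher in MLN-primed cells, 3 were lower and 13 did not pass, with a median of -0.07, where 17.3% of all tested genes were higher and 13.1% lower. Those 3 were Sytl2, a Rab27 effector (-0.77; -0.50 with limma adjusted p = 0.0550 in the fit with neither spleen-primed 3 nor MLN-primed 1), the syntaxin Stx11 (-0.34), mutated in familial hemophagocytic lymphohistiocytosis, and the vesicle SNARE Vamp8 (-0.32; limma adjusted p = 0.0520 without spleen-primed 2). Against naive, 9 were higher and 3 lower after spleen priming and 10 and 3 after MLN priming, beside 43.1% and 32.7%, and 45.5% and 33.2%, of all tested genes. The 3 lower after spleen priming became 1 without naive 2 or spleen-primed 1. Stx11 went from 1.04 to 21.8 and 17.0 FPKM. Of 6 granule membrane and sorting genes, 1 was lower between the primed groups, Igf2r, the receptor that carries mannose-6-phosphate tagged proteins such as granzymes to the granule. Igf2r was at 13.4, 27.5 and 12.9 FPKM on average in the naive group, after spleen priming and after MLN priming (-1.05 ± 0.14 between the primed groups, limma adjusted p = 5.65e-04). Against naive, 4 of the 6 were higher and 1 lower in spleen-primed cells, and 3 and 0 in MLN-primed cells, beside 43.1% and 32.7%, and 45.5% and 33.2%, of all tested genes. The 1 lower after spleen priming became 0 without naive 2, spleen-primed 1 or spleen-primed 3, and the 1 lower between the primed groups became 2 without naive 1, naive 2 or spleen-primed 3.

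Enzymes that build the chondroitin chains of serglycin were mixed. Between the primed groups, 17.3% of all tested genes were higher in MLN-primed cells and 13.1% were lower. Of the 14 enzymes tested, 1 was higher in MLN-primed cells than in the spleen-primed group, the sulfotransferase Chst12 (0.34). Another 3 were lower: the chain polymerase Chsy1 (-0.62), Csgalnact2 (-0.42), which starts the repeat, and Xylt1 (-0.27), which adds the first sugar. Against naive, 8 were higher (5 without spleen-primed 1) and 5 lower in spleen-primed cells and 6 and 5 in MLN-primed cells, beside 43.1% and 32.7%, and 45.5% and 33.2%, of all tested genes. Without single libraries, the Chst12 call was lost in 6 fits (naive 3, spleen-primed 1, 2 and 3, MLN-primed 2 and 3; limma adjusted p from 0.0544 to 0.135). The Xylt1 call was lost in 6 as well (naive 3, spleen-primed 1, 2 and 3, MLN-primed 1 and 3; 0.0622 to 0.142), and that of Csgalnact2 without MLN-primed 3 (0.0545).

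Among 13 transcription factors tied to cytotoxic genes, 3 were higher in MLN-primed cells, 5 were lower and 5 did not pass (median -0.02). This stood beside 17.3% higher and 13.1% lower of all tested genes. The lower ones included the T-box factor Eomes, at 25.7 ± 3.38 FPKM after spleen priming and 11.9 ± 0.784 after MLN priming (-1.04 ± 0.17, limma adjusted p = 0.00141). Also lower were Id2, at 307 ± 16.8 and 153 ± 7.77 (limma adjusted p = 0.00544), an inhibitor of E proteins, and Zeb2 (-0.62), a zinc finger repressor active in terminal effector cells. The higher ones were Irf4 (0.45), Rbpj (0.43), the Notch effector, and Batf (0.36); with median-of-ratios scaling Irf4 and Batf did not pass, nor did Irf4 without spleen-primed 1 or 2 or MLN-primed 1, 2 or 3 (limma adjusted p from 0.0760 to 0.127). Tbx21, which encodes T-bet and is named here after its values were seen, was at 158 ± 4.46 and 109 ± 1.01 FPKM (-0.54 ± 0.12, limma adjusted p = 0.00851). Against naive, 8 were higher and 2 lower in both primed groups, beside 43.1% and 32.7% of all tested genes after spleen priming and 45.5% and 33.2% after MLN priming. The 2 lower after MLN priming became 1 in 11 of the 21 alternatives, among them the fits without naive 1, naive 3, spleen-primed 1, spleen-primed 2, MLN-primed 1 or MLN-primed 3.

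Of 6 genes for killing and cytokines outside the granule, 1 was higher in MLN-primed cells, 4 were lower and 1 did not pass (median -0.56). Over all tested genes, 17.3% were higher and 13.1% lower. The 4 became 2 without any 1 of the 6 primed libraries, and likewise when 0.1 was added before the log, when low genes were kept or when totals were made equal. The death ligand Fasl was at 12.5 ± 0.638 FPKM after spleen priming and 5.94 ± 0.346 after MLN priming (-0.96 ± 0.13, limma adjusted p = 6.49e-04). The lymphotoxin genes went opposite ways, Ltb lower (-0.81) and Lta higher (0.50; not passing without spleen-primed 2, limma adjusted p = 0.0505). Interferon gamma (Ifng) was at 15.6 ± 3.29 and 6.14 ± 1.44 FPKM (-1.22 ± 0.38, limma adjusted p = 0.0366). The Ifng call was lost without any 1 of the 6 primed libraries (limma adjusted p from 0.0516 to 0.112). Against naive, 3 of the 6 were higher and 2 lower in spleen-primed cells, and 2 and 2 in MLN-primed cells, near the shares of all tested genes (43.1% and 32.7%, and 45.5% and 33.2%).

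**Figure D4:**
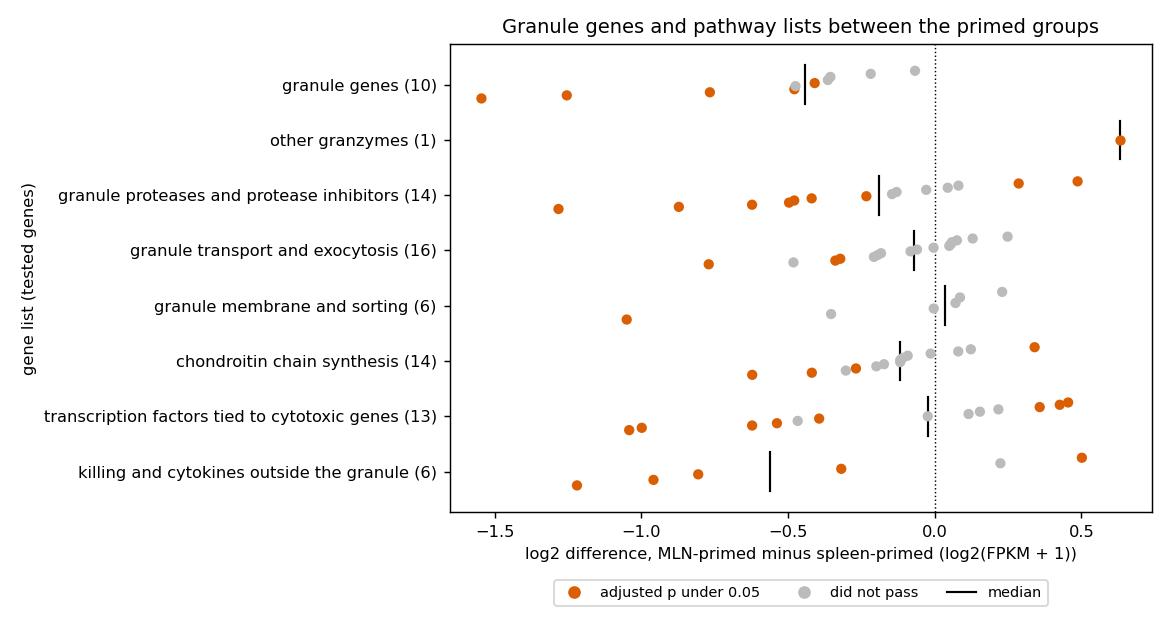
Log2 difference between MLN-primed and spleen-primed cells for the 10 granule genes and for the tested members of 7 lists (numbers in parentheses); orange points passed at an adjusted p under 0.05, grey points did not, and bars are list medians. The granule genes lie entirely below 0, with a median of -0.44, whereas the lists hold points on both sides, apart from the other granzymes, where the only point is Gzmf, which reached the filter through the MLN-primed libraries.

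The genes with the profile most like that of perforin were found by the distance between profiles of log2(FPKM + 1) over the 9 libraries, each centred on its mean. They were Fcgr2b, an inhibitory Fc receptor (distance 0.327), Ctsd (0.355), Crip2 (0.470), Pdgfb (0.493) and Fut7 (0.625), a fucosyltransferase of selectin ligands. Fcgr2b was at 0.176, 3.44 and 0.495 FPKM on average in the naive group, after spleen priming and after MLN priming. Crip2 was at 6.50, 23.5 and 8.68, Pdgfb at 0.287, 3.57 and 0.978 and Fut7 at 0.616, 5.93 and 1.84. Adding 1 before the log shrinks the changes of low genes. In FPKM, Fcgr2b, Pdgfb and Fut7 rose by larger factors from naive to both primed groups than Prf1 did. The profile most like Gzmb was that of Gzmk (0.905), followed by Gzma (1.74), Birc5 (2.51), Lgals3 (2.82) and Ccna2 (2.83). For Gzma the nearest were Birc5 (1.22), Lgals3 (1.23), Gzmk (1.30), Ccna2 (1.41) and Ube2c (1.45). Birc5, Ccna2 and Ube2c act in cell division; Birc5 was at 1.96, 359 and 364 FPKM on average in the 3 groups, and Lgals3, a galectin, at 2.33, 394 and 295. These distances describe 9 libraries in which the step from naive to primed is shared by many genes.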

How the data were processed

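Libraries of OT-I cell RNA were prepared with the RNeasy Plus Micro and TruSeq Stranded mRNA kits, per the labels' protocols. The deposited table gives FPKM per gene and library, which the authors made with TopHat and Cufflinks on mm10, according to the submitters' processing notes. No version, filter or strand setting of that step is stated there. A second deposited table was identical to it and was not used. FPKM keep no read numbers; depth is therefore unknown. Of 24067 rows, 131 without a symbol (0.0479% of FPKM) were left out.

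The 9 libraries, 3 per group, were grouped by their treatment labels. Values were used as log2(FPKM + 1), without further scaling, for the 10185 genes that reached 1 FPKM in 3 or more libraries. Groups were compared in a single 2-sided limma-trend fit (limma 3.58.1, R 4.3.3), with Benjamini-Hochberg adjustment over these genes and a threshold of 0.05. Errors printed with log2 differences are standard errors, and those with FPKM are SDs of 3 libraries. The 4 ratios within libraries, the summed granzyme level and the Gzmb share of it were compared by exact permutation tests (scipy 1.17.1), adjusted over these 6. Python 3.11.15, pandas 2.3.3, numpy 2.4.6 and matplotlib 3.10.9 were used for tables and plots, and Biopython 1.88 for aligning coding sequences. In simulations of the MLN-primed against spleen-primed comparison (200 of 10185 genes changed, 10 sets), the fit recovered 58.6% of changes of 0.5 in log2, 88.8% of 1 and 98.4% of 2. Of its calls there, 5.63% were false. The data gave many more calls (1760 higher and 1333 lower), so these rates need not hold for them.

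The members and the lists were chosen with earlier results of these data known. All members are named, with the list genes of the 3 smallest p-values in each direction between the primed groups and the 5 genes nearest in profile to Gzma, Gzmb and Prf1 (predicted models left out). Deviations of same-numbered naive and spleen-primed libraries from their group means correlated (r = 0.160, 0.116 and 0.236 across genes). Differently numbered ones there ran from r = -0.181 to 0.0567. This hints only weakly at pairing in that comparison, from the data and not from the labels. Elsewhere, differently numbered libraries reached r = 0.228 (MLN-primed 2 with naive 3) and 0.512 (MLN-primed 2 with spleen-primed 3). Printed values come from the fit without a block; the block, an alternative, changed no call on a granule gene. Alternatives were a pseudocount of 0.1, no filter or 5 FPKM, equal totals, median-of-ratios scaling, quantile normalisation, no variance trend, robust estimation, a fit of the compared groups alone, replicate numbers as a block, single libraries left out in turn, and a fit with neither spleen-primed 3 nor MLN-primed 1. Removal of the length trend was chosen after seeing the data. Protein sequences were not used here.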

Additional observations from a re-analysis of the deposited data

How the results depend on the processing

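Of the 10 granule genes, 9 were higher in spleen-primed than in naive cells and 8 or 9 in the 21 alternatives, 8 only where the 5 FPKM filter removed Gzmc. The number lower there was 1 (Srgn) and was 0 with no filter, with equal totals, with no variance trend, with the compared groups fitted alone, and with neither spleen-primed 3 nor MLN-primed 1; it ran from 0 to 1 when single libraries were left out (0 without naive 1, naive 2, spleen-primed 2, spleen-primed 3, MLN-primed 2 or MLN-primed 3). In MLN-primed against naive, 7 to 9 were higher and 1 was lower throughout, and in MLN-primed against spleen-primed 4 to 6 were lower and 0 higher. Among all tested genes, 1333 fell in the last comparison, and 884 (without spleen-primed 2) to 1389 with single libraries left out; with neither spleen-primed 3 nor MLN-primed 1, 2517 were higher and 1375 lower. Quantile normalisation moved the median of all tested genes from 0.10 to -0.07 in spleen-primed against naive and from 0.15 to -0.04 in MLN-primed against naive, and median-of-ratios scaling moved the latter to 0.02. Against naive, MLN-primed values changed sign under quantile normalisation for Ctsd (-0.00044), Ctsw (-0.54) and Vamp8 (-0.20), and with the length trend removed for Igf2r (0.34) and Vamp8 (-0.048); the cause was not tested.

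With the replicate number as a block no call on a granule gene changed. The block gave 4480 higher and 3448 lower genes in spleen-primed against naive, 4717 and 3490 in MLN-primed against naive, and 1942 and 1440 in MLN-primed against spleen-primed. In the last 2 comparisons the correlations of same-numbered libraries were of mixed sign (r = 0.145, -0.241 and 0.116, and r = 0.645, -0.240 and 0.485). Neither these values nor the labels settle whether those libraries are paired. The 4 ratios and the summed granzyme level kept their direction in 9 alternatives each, but the Gzmb share of the granzymes did not: its difference ran from -0.29 to 3.44 percentage points. With 3 libraries per group and unknown depth, differences under about 1 in log2 can be missed.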
